A study of Mus musculus with 24 samples.

Results

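Bone marrow-derived dendritic cells (BMDCs) that had received no LPS were compared between mice lacking tristetraprolin (TTP) and wild-type (WT) mice, across all genes of the RNA-Seq table for 0 h. The comparison took 6 of the 24 libraries of the series, 3 of TTP-/- cells and 3 of WT cells, taken by genotype and time. The other 18 libraries were of LPS-treated cells and were not analysed here. The TTP-/- cells came from mice without a functional *Zfp36* gene in any tissue, and the WT cells from mice with both copies intact. Both groups were C57BL/6 mice aged 9 to 12 weeks at the time of marrow collection from femurs and tibias, and both sets of cells were grown in medium with GM-CSF and left untreated (0 h). The replicates are described as biological triplicates, and whether a replicate is 1 mouse, a pool or a parallel dish is not given in the sources used here. No sorting of the cells is described, so that a library holds whatever cell types grew in the culture, and fewer cells of a type cannot be told apart from less RNA per cell.

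TTP is an RNA-binding protein that docks on AU-rich elements in the 3′ untranslated region (UTR) of an mRNA and recruits the enzymes that shorten its poly(A) tail, after which the mRNA decays. *Tnf*, which encodes the cytokine TNF, is its best-known target, and several other cytokine and chemokine mRNAs carry the same kind of element. GM-CSF drives marrow progenitors toward cells with dendritic cell and macrophage features, and such cultures can also contain granulocytes and cells that are still dividing.

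The libraries held 22935247 to 23765963 reads assigned to genes in TTP-/- cells and 22023997 to 24714175 in WT cells, so depth overlapped between genotypes. Levels are given as FPKM, fragments per kilobase of gene and per library size, and each difference as a log2 fold change of TTP-/- over WT on log2(FPKM + 0.1), a scale that makes changes of weakly expressed genes look smaller than they are. The first principal component took 67.7% of the variance and separated the genotypes. The second took 21.3% and separated TTP-/- replicate 3 (−29.0) and WT replicate 2 (−19.4) from the other 4 libraries (14.1, 15.2, 8.67 and 10.4). These 2 libraries stood apart in relation to the GC content of the genes, since the deviation of TTP-/- replicate 3 from the other TTP-/- libraries correlated with GC across 9087 genes (Pearson r = 0.646), and so did that of WT replicate 2 from the other WT libraries (r = 0.629). In TTP-/- replicate 3 the median deviation was −0.43 (log2) in the fifth of genes with the lowest GC content and 0.43 in the fifth with the highest, and in WT replicate 2 it was −0.32 and 0.32. Each genotype held 1 such library, and the log2 fold change between genotypes had little relation to GC (r = 0.020). Genes are not independent replicates, so these correlations are descriptions. Counts of most lists below are therefore also given without these 2 libraries, called the outlying pair, and for some lists after correction for GC.

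**Figure D1:**
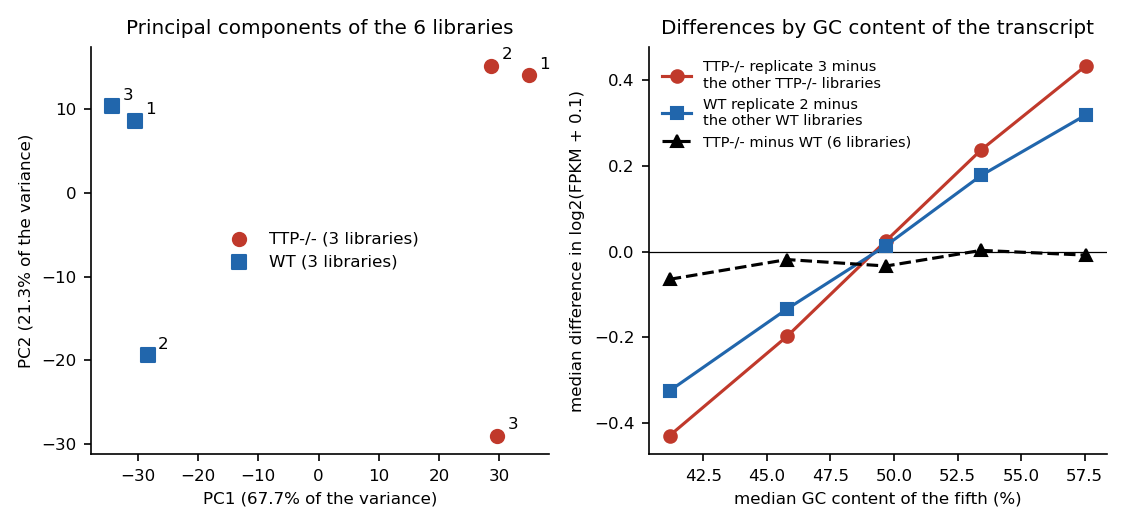
Left, the first and second principal components of the 6 libraries, in the units of the component scores, with TTP-/- and WT libraries in separate colours. Right, the median deviation of TTP-/- replicate 3 and of WT replicate 2 from the other libraries of their genotype (log2) in 5 equal groups of genes ordered by GC content, which runs from −0.43 to 0.43 and from −0.32 to 0.32.

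*Zfp36* (ENSMUSG00000044786, GRCm38 chr7:28376784-28380253, minus strand), which encodes TTP, was the gene to check against the labels. Its level was 87.4, 101 and 102 FPKM in TTP-/- libraries, against 213, 201 and 213 FPKM in WT libraries (log2 fold change −1.11, SE 0.12, adjusted p = 0.000861 by limma). The groups did not overlap, and the level in TTP-/- cells was well above 0. FPKM sums reads over the gene as a whole, so these values do not show whether the TTP-/- transcript could still be read into protein, and the structure of the knockout allele is not given in the sources used here. With 3 against 3 libraries, an exact two-sided permutation test of a single gene can reach no p below 0.1, which is what it gave for *Zfp36*. The p-values below come from limma, adjusted over all genes tested by the Benjamini-Hochberg method, and measure the spread between these cultures.

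The other members of the TTP family bind the same elements and went different ways. *Zfp36l2* (BRF2) was at 47.8, 39.9 and 35.02 FPKM in TTP-/- libraries, against 15.9, 14.1 and 12.3 FPKM in WT libraries, higher in every TTP-/- library (log2 fold change 1.52, SE 0.16, limma adjusted p = 0.000867). *Zfp36l1* (BRF1) was at 96.4, 97.6 and 113 FPKM in TTP-/- libraries, against 162, 158 and 153 FPKM in WT libraries, lower in every TTP-/- library (log2 fold change −0.63, SE 0.11, limma adjusted p = 0.00747). Rescaled to TPM, the changes of these genes and of *Zfp36* kept their direction and their call. Among 14 tested genes of 15 listed that encode proteins binding AU-rich or related elements, these were the only ones past the threshold, and the median log2 fold change of the list was −0.12. *Khsrp*, a decay-promoting factor, had 7.65 to 9.16 FPKM in TTP-/- and 8.05 to 9.24 FPKM in WT libraries (adjusted p = 0.693). *Elavl1*, which encodes the stabilizing protein HuR, had 3.83 to 4.12 FPKM in TTP-/- and 4.12 to 4.599 FPKM in WT libraries (adjusted p = 0.331). *Zc3h12a* (Regnase-1, an endonuclease) had 4.12 to 5.01 FPKM in TTP-/- and 3.71 to 5.24 FPKM in WT libraries (adjusted p = 0.908).

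The TTP-binding motif best known from binding studies is the 9-letter sequence UUAUUUAUU. A first copy of it in the 3′ UTR is shown for the 3 family members and for 3 mRNAs that were higher in TTP-/- cells, since the same letters stood in genes that changed in opposite directions. The letters are those of the annotated transcript (GENCODE M21, GRCm38), 5′ to 3′ with T for U, with the motif in capitals.
*Zfp36* (chr7:28376951-28376979, minus strand): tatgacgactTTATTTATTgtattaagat
*Zfp36l1* (chr12:80108167-80108195, minus strand): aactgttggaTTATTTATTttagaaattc
*Zfp36l2* (chr17:84184914-84184942, minus strand): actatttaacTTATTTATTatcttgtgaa
*Tnf* (chr17:35199689-35199717, minus strand): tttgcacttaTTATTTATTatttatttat
*Cxcl2* (chr5:90905316-90905344, plus strand): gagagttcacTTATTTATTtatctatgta
*Fos* (chr12:85477103-85477131, plus strand): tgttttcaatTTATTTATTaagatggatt
The 3′ UTR of *Tnf* held 5 copies of this motif, that of *Cxcl2* 4, and those of the other genes shown 1 each. The motif stood at least once in 490 of 7529 genes with an annotated 3′ UTR, or 6.51%.

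Across the transcriptome, untreated TTP-/- cells differed from WT cells in almost equal numbers of genes each way. Of 9174 genes that averaged 0.5 FPKM or more across these libraries, 1327 were higher (14.5%) and 1377 lower (15.0%) at an adjusted p of 0.05 in limma. Of these, 574 rose and 340 fell at least 2-fold, and 122 rose and 25 fell at least 4-fold. All libraries of TTP-/- cells lay above all WT libraries in 1993 genes (21.7%) and below them in 2131 (23.2%), whether or not the gene passed the test. Among the genes called higher, 256 had a WT mean under the filter of 0.5 FPKM, and among those called lower, 158 had a TTP-/- mean under it, so these passed the filter through 1 genotype only. The median log2 fold change of all tested genes was −0.02. Rescaling the values to TPM shifted this median by 0.12 and gave 1588 genes higher and 905 lower, so that 63.7% of the calls were higher instead of 49.1%. Without the outlying pair 2012 genes were higher (21.9%) and 2201 lower (24.0%), which included 1309 and 1350 of the genes called with all 6 libraries. After correction for GC, 2214 were higher (24.4%) and 2042 lower (22.5%), including 1303 and 1324 of the original calls. No gene was called in opposite directions. In the fit of all libraries and in each of the 6 fits that left out 1 library, 790 genes were higher (8.61%) and 697 lower (7.60%). These shares of all genes are the ones to set beside the counts of each list below, setting by setting. They were 14.5% higher and 15.0% lower with all 6 libraries, and 21.9% and 24.0% without the outlying pair. After GC correction they were 24.4% and 22.5%, and over every fit that left out 1 library 8.61% and 7.60%. In TPM 1588 of 9174 genes were higher and 905 lower. With voom on recovered reads, which tests more genes, 2604 of 14484 were higher and 2328 lower.

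**Figure D2:**
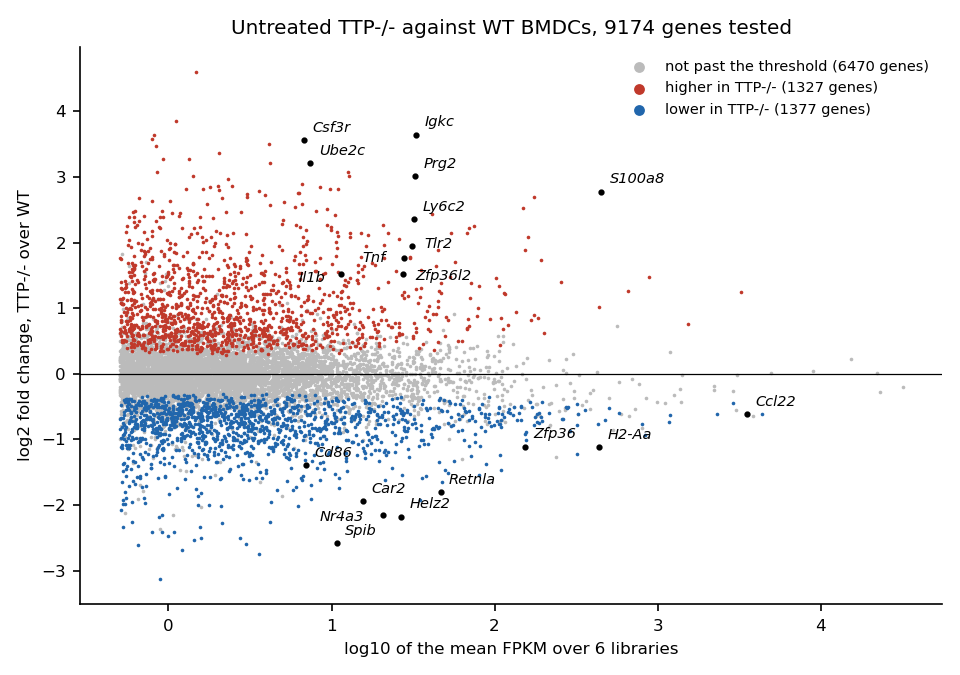
Log2 fold change of TTP-/- over WT for the 9174 tested genes against the log10 of their mean FPKM, with the 1327 higher and 1377 lower genes coloured and selected genes labelled. The called genes lie on both sides of 0 over the whole range of levels, and *Igkc* (3.65) and *Spib* (−2.58) mark the upper and lower edges among genes averaging 5 FPKM or more.

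Among genes averaging 5 FPKM or more, the largest rises included transcripts of granulocytes, immunoglobulins and dividing cells. *Igkc*, the constant region of the kappa light chain, was at 44.4, 73.4 and 66.3 FPKM in TTP-/- libraries, against 4.81, 3.49 and 6.18 FPKM in WT libraries (log2 fold change 3.65, SE 0.26, limma adjusted p = 0.000272). *Csf3r*, the receptor for G-CSF on neutrophils and their precursors, was at 9.39, 11.6 and 16.7 FPKM in TTP-/- libraries, against 0.982, 0.948 and 0.895 FPKM in WT libraries (log2 fold change 3.56, SE 0.21, limma adjusted p = 0.000155). For both genes the lowest TTP-/- library was far above the highest WT library. The other 10 were *Ube2c* (3.21), *Stfa2l1* (3.08), *Stfa2* (3.01), *Prg2* (3.01), *Asprv1* (2.89), *Ighm* (2.85), *Ifitm6* (2.82), *Cdca3* (2.82), *S100a8* (2.78) and *Cxcr2* (2.76).

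The largest falls among these genes were of varied function. *Spib*, an Ets-family transcription factor, was at 2.505, 2.65 and 4.01 FPKM in TTP-/- libraries, against 17.4, 19.5 and 18.4 FPKM in WT libraries (log2 fold change −2.58, SE 0.19, limma adjusted p = 0.000272). *Helz2*, a nuclear helicase that acts as a coactivator, was at 7.48, 8.97 and 12.8 FPKM in TTP-/- libraries, against 39.1, 49.9 and 41.9 FPKM in WT libraries (log2 fold change −2.18, SE 0.21, limma adjusted p = 0.000684). *Nr4a3*, an orphan nuclear receptor, was at 6.92, 8.25 and 7.35 FPKM in TTP-/- libraries, against 34.2, 31.1 and 35.5 FPKM in WT libraries (log2 fold change −2.15, SE 0.12, limma adjusted p = 0.000152). None of these 3 genes had overlapping groups, and the highest TTP-/- library was below the lowest WT library by more than 2-fold in each. *Car2*, which encodes carbonic anhydrase 2, was at 5.81, 7.41 and 5.92 FPKM in TTP-/- libraries, against 25.3, 21.1 and 28.2 FPKM in WT libraries, a log2 fold change of −1.94. *Npr1* (−2.01), the receptor for natriuretic peptides, *Retnla* (−1.81), *Plekhg2* (−1.77), *Serpinb6b* (−1.74), *Rgs10* (−1.72), a regulator of G-protein signaling, and *Tnfrsf4* (−1.69), which encodes OX40, followed. The uncharacterized transcripts *Gm14719* (−1.92) and *4930520O04Rik* (−1.91) completed the 12.

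Most genes of the later neutrophil granules and of mature neutrophils were higher in TTP-/- cells. Of 12 listed genes for specific and gelatinase granules, which fill as neutrophils mature, 10 were tested and 9 rose, each also in every fit that left out 1 library and without the outlying pair, against 14.5% of all genes (list median 2.18), and 1 of these passed the filter through the TTP-/- libraries alone. *Ngp*, a granule protein, was at 205, 267 and 292 FPKM in TTP-/- libraries, against 40.7, 46.9 and 43.2 FPKM in WT libraries (log2 fold change 2.53, SE 0.16, limma adjusted p = 0.000205). *Ltf*, which encodes the iron-binding lactoferrin, was at 3.93, 4.34 and 6.02 FPKM in TTP-/- libraries, against 0.651, 0.798 and 0.873 FPKM in WT libraries, a log2 fold change of 2.46. *Lcn2* (lipocalin 2, which captures bacterial siderophores) was at 90.7, 121 and 135 FPKM in TTP-/- libraries, against 23.8, 26.9 and 22.8 FPKM in WT libraries, a log2 fold change of 2.21. In these genes all TTP-/- libraries were at least 3-fold above the WT libraries, and *Camp* (2.52), the cathelicidin, *Cd177* (2.45), *Mmp8* (2.15), *Chil3* (2.14), *Mmp9* (2.08) and *Hp* (1.95) rose alike. The member not past the threshold was *Itgb2l* (0.829 to 1.23 FPKM in TTP-/- and 1.23 to 1.39 FPKM in WT libraries). Summed over the list, these genes took 0.308, 0.345 and 0.354% of assigned reads in TTP-/- and 0.0664, 0.0679 and 0.0629% in WT libraries.

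Genes of mature neutrophils followed (median 2.23; 18 higher and 1 lower without the outlying pair). With all libraries 17 of 21 tested members were higher (81.0%) and 1 lower (4.76%), against 14.5% and 15.0% of all genes. Of the higher ones, 3 had a WT mean below the filter. *S100a8*, which with *S100a9* encodes calprotectin, was at 803, 1074 and 495 FPKM in TTP-/- libraries, against 128, 74.1 and 139.9 FPKM in WT libraries (log2 fold change 2.78, SE 0.35, limma adjusted p = 0.00167). TTP-/- replicate 3 was the lowest of its genotype and still above all WT libraries by more than 3-fold. *Cxcr2*, the receptor that draws neutrophils to CXC chemokines, was at 9.58, 11.5 and 11.6 FPKM in TTP-/- libraries, against 1.56, 1.53 and 1.46 FPKM in WT libraries, a log2 fold change of 2.76. *S100a9* (2.69), *Ly6g* (1.595), *Padi4* (1.75) and *Trem1* (1.46) were also higher. The member that fell was *Mmp25*, a membrane-bound matrix metalloproteinase, at 25.8, 28.0 and 38.6 FPKM in TTP-/- libraries, against 50.4, 59.8 and 53.6 FPKM in WT libraries (log2 fold change −0.84, SE 0.17, limma adjusted p = 0.0119). *Mxd1* (8.096 to 11.8 FPKM in TTP-/- and 9.62 to 11.3 FPKM in WT libraries, adjusted p = 0.558) and *Retnlg* (4.03 to 8.31 and 2.07 to 3.79 FPKM, adjusted p = 0.0511) did not pass. The stefin genes *Stfa2l1*, *Stfa2* and *Stfa3* and *BC100530* are near-identical copies, so the division of reads among them is uncertain.

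Azurophil granule genes, which are switched on earliest in neutrophil precursors, were mostly below the filter. Only 3 of 9 listed genes passed the filter, 2 of them through the TTP-/- libraries alone, and all 3 were higher, so their count is no result for the list. *Elane* (neutrophil elastase) was at 1.58, 2.49 and 3.74 FPKM in TTP-/- libraries, against 0.171, 0.262 and 0.219 FPKM in WT libraries (log2 fold change 3.02, SE 0.29, limma adjusted p = 0.000684). *Cebpe*, a transcription factor of late granulopoiesis, was at 8.25, 7.27 and 12.9 FPKM in TTP-/- libraries, against 3.47, 3.84 and 2.197 FPKM in WT libraries (log2 fold change 1.54, SE 0.28, limma adjusted p = 0.00694). *Mpo*, the peroxidase that defines this granule, was below the filter with 24, 27 and 56 reads in TTP-/- and 1, 6 and 2 reads in WT libraries, and *Prtn3* had 55, 76 and 121 reads in TTP-/- and 18, 36 and 14 in WT libraries. The defining azurophil transcript was thus present in TTP-/- cells at no more than 56 reads in a library. *Ms4a3*, also below the filter, had 202, 236 and 239 reads in TTP-/- and 41, 33 and 25 in WT libraries. With voom on recovered reads 8 of the listed genes were tested, some on few reads, and all 8 were higher (median 2.49). Over all genes voom called 2604 of 14484 higher.

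Most eosinophil genes were higher in TTP-/- cells. Of 10 tested genes of 12 listed, 9 were higher, in every fit that left out 1 library and without the outlying pair, against 14.5% of all genes (median 2.25). Of these, 3 passed the filter through the TTP-/- libraries alone, *Epx* among them. *Prg2*, the major basic protein of eosinophil granules, was at 47.5, 55.2 and 71.7 FPKM in TTP-/- libraries, against 6.52, 7.38 and 7.19 FPKM in WT libraries (log2 fold change 3.01, SE 0.17, limma adjusted p = 0.000152). *Siglecf*, a sialic acid-binding surface receptor, was at 5.198, 6.01 and 5.904 FPKM in TTP-/- libraries, against 1.897, 1.84 and 2.06 FPKM in WT libraries (log2 fold change 1.51, SE 0.11, limma adjusted p = 0.0002602). *Epx*, the eosinophil peroxidase, was at 3.09, 3.302 and 4.97 FPKM in TTP-/- libraries, against 0.233, 0.2996 and 0.277 FPKM in WT libraries, a log2 fold change of 3.37. The TTP-/- libraries lay above all WT libraries in each, as they did for *Prg3* (2.47), *Ccr3* (the eotaxin receptor, 1.95) and *Alox15* (2.24). The eosinophil ribonucleases *Ear1* (2.38), *Ear2* (2.26) and *Ear7* (2.14) are near-identical and share reads, while *Rnase2a* had 0.6296 to 1.43 FPKM in TTP-/- and 1.203 to 1.59 FPKM in WT libraries and did not pass. Eosinophil genes took 0.0743, 0.0926 and 0.0878% of reads in TTP-/- and 0.0144, 0.0134 and 0.01499% in WT libraries. For basophils and mast cells, 3 of 14 listed genes were tested. The basophil proteases *Mcpt8*, at 1.17, 1.86 and 1.82 FPKM in TTP-/- libraries, against 0.254, 0.177 and 0.243 FPKM in WT libraries (2.38), and *Prss34* (2.46) were higher, and both passed the filter through the TTP-/- libraries alone, so their count is no result for the list. *Gata2*, a transcription factor of these lineages and of progenitors, did not pass the test (log2 fold change 0.32, adjusted p = 0.251 by limma). Among members below the filter, the mast cell protease gene *Tpsb2* had 6, 5 and 6 reads in TTP-/- and 29, 23 and 22 in WT libraries, *Cma1* 2, 6 and 6 in TTP-/- and 20, 11 and 7 in WT libraries, and *Cpa3* 242, 348 and 244 in TTP-/- and 222, 142 and 207 in WT libraries. Reads of *Tpsb2* and *Cma1* were fewer in all TTP-/- libraries. Others were more frequent there, such as *Fcer1a*, with 61, 80 and 45 reads in TTP-/- and 9, 4 and 9 in WT libraries. *Hdc* had 86, 100 and 158 in TTP-/- and 16, 27 and 19 in WT libraries. With voom on recovered reads 10 of the listed genes were tested, and 6 were higher and 1 lower (median 1.84). Over all genes voom called 2604 higher and 2328 lower of 14484.

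Monocyte and macrophage genes were mostly higher in TTP-/- cells, with exceptions. Of 16 tested genes of 26 listed, 13 rose (81.25%) and 2 fell (12.5%), against 14.5% and 15.0% of all genes (median 1.02). Of the higher genes 1 had a WT mean below the filter. In every fit that left out 1 library 9 rose and 2 fell, and without the outlying pair 14 and 2. *Ly6c2*, the Ly6C antigen of inflammatory monocytes, was at 52.2, 54.3 and 55.4 FPKM in TTP-/- libraries, against 10.4, 11.6 and 9.55 FPKM in WT libraries (log2 fold change 2.35, SE 0.11, limma adjusted p = 0.000142), although reads may be shared with its paralog *Ly6c1*. *Csf1r*, the M-CSF receptor of the macrophage lineage, was at 14.5, 11.2 and 13.8 FPKM in TTP-/- libraries, against 4.59, 5.25 and 3.697 FPKM in WT libraries (log2 fold change 1.53, SE 0.17, limma adjusted p = 0.000978). *Trem2* (1.68), *Gpnmb* (1.43), *Cd68* (1.34) and the complement genes *C1qa* (0.996), *C1qb* (0.94) and *C1qc* (0.95) rose too. *Retnla*, which encodes the alternative activation product RELMα, was at 19.02, 26.9 and 16.8 FPKM in TTP-/- libraries, against 78.6, 60.7 and 77.9 FPKM in WT libraries (log2 fold change −1.81, SE 0.20, limma adjusted p = 0.00112). All its TTP-/- libraries were below all WT libraries, opposite to most called members of the list.

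The label of these cells as dendritic cells was checked on 21 listed identity genes, of which 13 passed the filter. *Itgax*, the gene of CD11c by which such cells are usually recognised, was at 15.5, 12.03 and 12.6 FPKM in TTP-/- libraries, against 11.5, 12.9 and 8.83 FPKM in WT libraries, and the groups overlapped (log2 fold change 0.27, adjusted p = 0.286 by limma). *Zbtb46*, a transcription factor largely restricted to classical dendritic cells, was present in all libraries, at 0.639, 0.721 and 0.9201 FPKM in TTP-/- libraries, against 1.53, 1.68 and 1.63 FPKM in WT libraries (log2 fold change −1.01, SE 0.14, limma adjusted p = 0.002604). Altogether 6 identity genes were lower (46.2%) and 2 higher (15.4%), against 15.0% and 14.5% of all genes (median −0.68). Of the lower ones, 1 (*Dpp4*) had a TTP-/- mean below the filter. Without the outlying pair 8 were lower and 1 higher, and in TPM 5 and 2. With voom on recovered reads, which tested 19 of the listed genes, 6 were lower and 4 higher (median −0.32). Over all genes voom called 2328 lower and 2604 higher of 14484. Members below the filter included some with more reads in TTP-/- cells, such as *Clec9a*, a lectin of cross-presenting dendritic cells, with 84, 58 and 37 reads in TTP-/- and 24, 19 and 15 in WT libraries, and *Clec10a*, with 278, 179 and 210 in TTP-/- and 109, 115 and 92 in WT libraries. *Irf8*, which directs the development of cross-presenting dendritic cells, was at 10.04, 12.3 and 17.6 FPKM in TTP-/- libraries, against 26.2, 32.2 and 28.7 FPKM in WT libraries, a log2 fold change of −1.15. *Irf4*, which directs the other classical branch, was at 17.9, 18.8 and 17.6 FPKM in TTP-/- libraries, against 35.4, 34.8 and 37.1 FPKM in WT libraries, a log2 fold change of −0.98. Every TTP-/- library was below every WT library for both factors, as for *Spib* above and for *Dpp4* (CD26, −1.74). *Relb* (−0.81, adjusted p = 0.0381) held in 1 of the 6 fits without 1 library. The higher ones were *Sirpa* (1.01), a receptor shared by macrophages and dendritic cells, and *Cd24a* (0.43, adjusted p = 0.0487), which held in none of the fits without 1 library.

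Genes for antigen presentation on MHC class II were lower in TTP-/- cells. Of the 13 listed genes, all of which were tested, 9 fell, against 15.0% of all genes, and 8 of these held in every fit that left out 1 library (median −0.92; 9 without the outlying pair, 8 in TPM). *H2-Aa*, the alpha chain of I-A, was at 251, 272 and 313 FPKM in TTP-/- libraries, against 567, 626 and 609.6 FPKM in WT libraries (log2 fold change −1.11, SE 0.13, limma adjusted p = 0.00122). *Ciita*, the transactivator on which class II expression depends, was at 1.15, 1.15 and 1.66 FPKM in TTP-/- libraries, against 2.95, 3.66 and 2.797 FPKM in WT libraries (log2 fold change −1.196, SE 0.18, limma adjusted p = 0.00315). *Cd74*, the invariant chain, was at 508, 511 and 770.3 FPKM in TTP-/- libraries, against 894, 1197 and 910.1 FPKM in WT libraries (log2 fold change −0.76, SE 0.21, limma adjusted p = 0.0343). TTP-/- replicate 3 had the highest value of its genotype in each of these genes and WT replicate 2 the highest of WT. For *Cd74* the call held in 1 of the 6 fits without 1 library, while without the outlying pair its log2 fold change was −0.82 (adjusted p = 0.00265). *H2-Ab1* (−0.76), *H2-Eb1* (−1.25), *H2-Eb2* (−1.83), *H2-Oa* (−1.28), *H2-DMb2* (−0.93) and *Ifi30* (−0.92), a lysosomal thiol reductase, were also lower. *H2-DMa* (39.4 to 63.8 FPKM in TTP-/- and 36.4 to 54.2 FPKM in WT libraries, adjusted p = 0.471) and *Ctss* (cathepsin S, 12.7 to 22.9 and 14.3 to 18.4 FPKM, adjusted p = 0.8503) overlapped between groups. The list took 0.851, 0.838 and 1.16% of reads in TTP-/- and 1.39, 1.76 and 1.41% in WT libraries. The H2 genes are paralogs and may share reads.

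**Figure D3:**
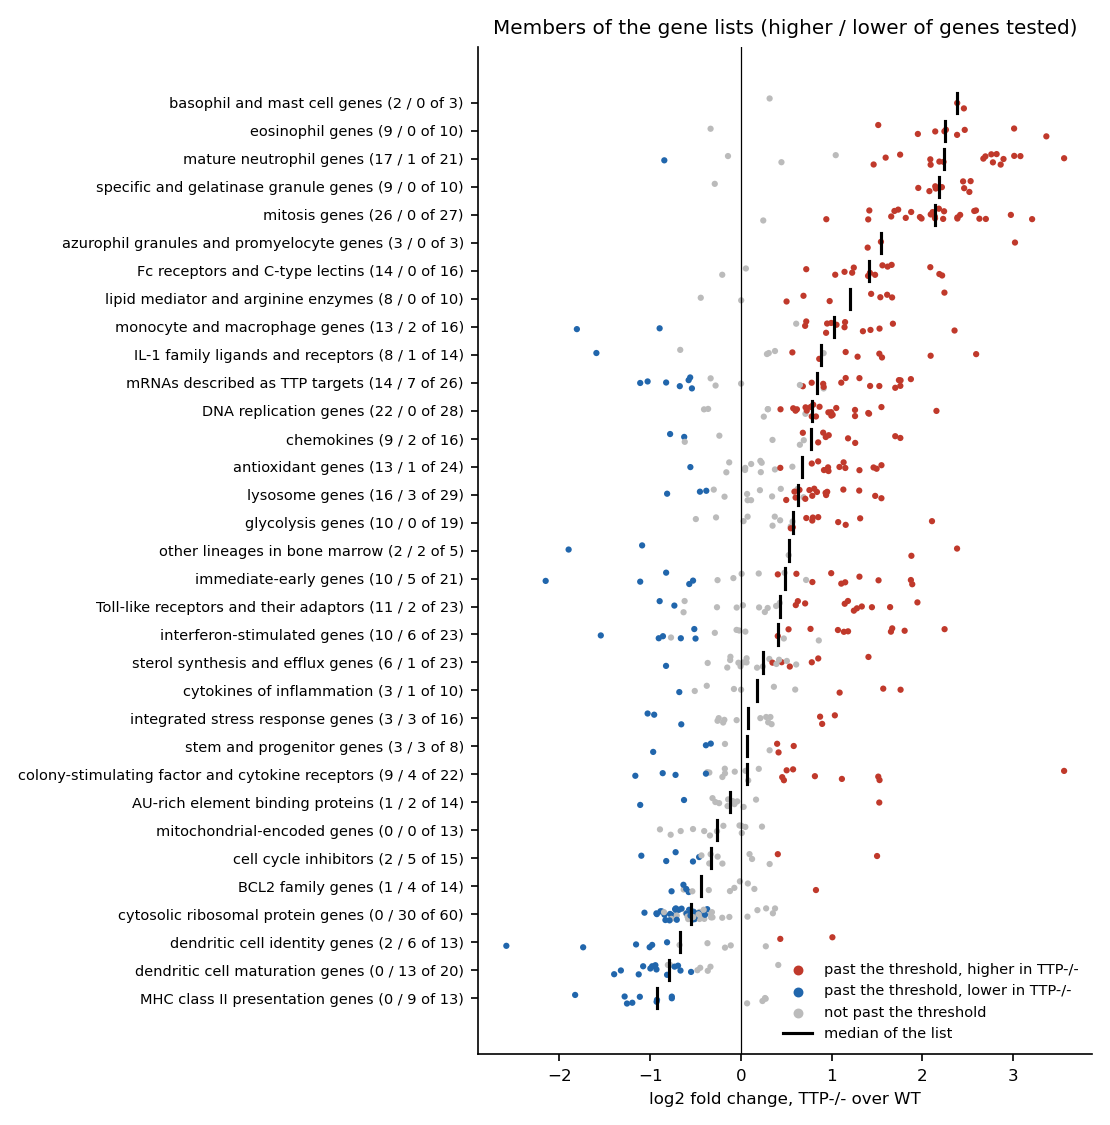
For each gene list, the log2 fold change of TTP-/- over WT of every tested member (points, coloured by call) and the list median as a short line. The row labels give the numbers higher and lower of those tested. Lists of mature neutrophil, specific granule, eosinophil and mitosis genes lie to the right with medians above 2, and MHC class II (−0.92), dendritic cell maturation (−0.79) and ribosomal protein genes (−0.55) to the left. The basophil and azurophil rows rest on 3 genes each, of which 2 passed the filter through the TTP-/- libraries alone.

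Many genes that dendritic cells raise on maturation were lower in TTP-/- cells, here in untreated cultures. Of 20 listed genes, all tested, 13 fell (65.0%), against 15.0% of all genes (median −0.79). In every fit that left out 1 library 9 of the 13 held. *Cd86*, a costimulatory ligand for T cells, was at 3.49, 4.43 and 3.45 FPKM in TTP-/- libraries, against 10.4, 8.52 and 11.5 FPKM in WT libraries (log2 fold change −1.396, SE 0.16, limma adjusted p = 0.00113). Its partner *Cd80* was at 2.79, 3.39 and 2.64 FPKM in TTP-/- libraries, against 6.34, 5.76 and 6.76 FPKM in WT libraries, a log2 fold change of −1.08. *Il4i1*, an amino acid oxidase, was at 5.19, 6.43 and 9.53 FPKM in TTP-/- libraries, against 16.2, 20.96 and 15.05 FPKM in WT libraries, a log2 fold change of −1.32. All TTP-/- libraries were below all WT libraries in these genes, as in *Cd200* (−1.13) and *Pdcd1lg2* (PD-L2, −0.997). *Ccr7*, the receptor that guides mature dendritic cells to lymph nodes, was at 119.7, 143 and 230.2 FPKM in TTP-/- libraries, against 235, 311 and 273 FPKM in WT libraries (log2 fold change −0.78, SE 0.25, limma adjusted p = 0.0581). *Fscn1*, the actin-bundling protein of mature dendritic cells, was at 106, 125 and 258 FPKM in TTP-/- libraries, against 230.3, 323 and 245 FPKM in WT libraries (adjusted p = 0.121). In both, TTP-/- replicate 3 was near or inside the WT range while the other TTP-/- replicates were below it. Without the outlying pair 19 of the 20 genes were lower and 1 (*Tnfsf9*) higher, *Ccr7* with −0.95 (adjusted p = 0.00513) and *Fscn1* with −1.04 (adjusted p = 0.00270). After correction for GC the numbers were 16 and 1. Granulocyte and monocyte markers moved the other way, and their part in the lower levels of dendritic cell genes was not tested.

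Immunoglobulin transcripts such as *Igkc* and *Ighm* were higher in TTP-/- cultures although the B cell marker *Cd79a* had few reads. Of 18 tested immunoglobulin segments 15 were higher (83.3%), against 14.5% of all genes (median 2.85). Segments that passed the filter through the TTP-/- libraries alone were not counted separately, so this count is no result for the segments as a group. *Ighm*, the heavy chain of IgM, was at 11.1, 15.4 and 18.4 FPKM in TTP-/- libraries, against 1.79, 2.11 and 1.95 FPKM in WT libraries (log2 fold change 2.85, SE 0.19, limma adjusted p = 0.000238). *Jchain*, which joins IgM and IgA in plasma cells, was at 0.790, 1.14 and 1.14 FPKM in TTP-/- libraries, against 0.116, 0.147 and 0.0815 FPKM in WT libraries, a log2 fold change of 2.38. All TTP-/- libraries were above all WT libraries in both genes, as in *Igkc*, and *Jchain* passed the filter through the TTP-/- libraries alone. *Cd79a*, a signaling chain of the B cell receptor, was below the filter, with 4, 8 and 12 reads in TTP-/- and 4, 5 and 4 in WT libraries. Variable segments resemble each other, so their single values are uncertain. Of 31 listed genes of other marrow lineages 5 were tested. Besides *Jchain*, *Pf4* (platelet factor 4), a chemokine of megakaryocytes, was higher at 356, 215 and 163 FPKM in TTP-/- libraries, against 74.1, 67.7 and 49.8 FPKM in WT libraries (1.88), while *Cd8a* (−1.898) and *Hbb-b2* (a globin, −1.09) were lower. Both lower genes passed the filter through the WT libraries alone, so these counts are no result for the list.

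Genes of cell division were higher in TTP-/- cells. Of 27 tested mitosis genes of 32 listed, 26 rose, each in every fit that left out 1 library and 26 without the outlying pair (median 2.14), against 14.5% of all genes, although 13 of them passed the filter with a WT mean below it. *Ube2c*, the ubiquitin-conjugating enzyme of the anaphase-promoting complex, was at 15.6, 13.4 and 11.5 FPKM in TTP-/- libraries, against 1.46, 1.43 and 1.198 FPKM in WT libraries (log2 fold change 3.21, SE 0.15, limma adjusted p = 0.000142). *Ccnb1* (cyclin B1) was at 6.59, 6.15 and 3.26 FPKM in TTP-/- libraries, against 0.741, 0.599 and 0.771 FPKM in WT libraries (log2 fold change 2.699, SE 0.27, limma adjusted p = 0.000712). *Mki67*, the proliferation antigen Ki-67, was at 20.6, 16.9 and 11.8 FPKM in TTP-/- libraries, against 3.68, 3.13 and 3.15 FPKM in WT libraries (log2 fold change 2.24, SE 0.21, limma adjusted p = 0.000616). In these genes TTP-/- replicate 3 was the lowest TTP-/- library and still more than 3-fold above all WT libraries. The kinases *Plk1* (2.63), *Aurka* (1.97), *Aurkb* (2.14) and *Cdk1* (1.82) moved with them. *Pttg1* (securin), at 4.79, 5.304 and 5.11 FPKM in TTP-/- libraries, against 4.65, 4.004 and 4.13 FPKM in WT libraries (adjusted p = 0.131), was the member that did not pass. Mitosis genes took 0.245, 0.1995 and 0.155% of reads in TTP-/- and 0.0404, 0.0361 and 0.0362% in WT libraries. The part of the other cell types whose markers were higher in TTP-/- cells in these values was not tested.

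Replication genes rose less, with 22 of 28 tested members higher (78.6%), against 14.5% of all genes (median 0.79). Of the 22, 4 had a WT mean below the filter. In every fit that left out 1 library 14 were higher, and without the outlying pair 25 were higher and 1 lower. *Rrm2*, a subunit of ribonucleotide reductase, was at 23.8, 16.2 and 13.4 FPKM in TTP-/- libraries, against 4.06, 3.73 and 3.64 FPKM in WT libraries (log2 fold change 2.15, SE 0.21, limma adjusted p = 0.000677). *Pcna*, the replication clamp, was at 33.5, 30.7 and 20.04 FPKM in TTP-/- libraries, against 15.1, 11.5 and 14.8 FPKM in WT libraries (log2 fold change 0.99, SE 0.22, limma adjusted p = 0.0149) and held in 4 of the 6 fits. The helicase subunits *Mcm2* to *Mcm7* had log2 fold changes of 0.44 (*Mcm6*) to 1.01 (*Mcm5*), all past the threshold. Cell cycle inhibitors gave 2 higher (13.3%) and 5 lower (33.3%) of 15 tested, against 14.5% and 15.0% of all genes. In every fit that left out 1 library 1 was higher and 3 lower, and without the outlying pair 3 and 6 were. *Cdkn2d* (p19Ink4d) was higher (1.501), and *Gadd45b* (−1.097), *Tob1* (−0.82) and *Btg1* (−0.72), which restrain proliferation, were lower in every fit that left out 1 library. *Cdkn1a* (p21) had 48.3 to 70.5 FPKM in TTP-/- and 67.3 to 78.1 FPKM in WT libraries (adjusted p = 0.178). Of 8 tested stem and progenitor genes 3 rose and 3 fell (37.5% each way), against 14.5% and 15.0% of all genes. Of these, 2 of the higher and 1 of the lower passed the filter through 1 genotype alone, so the counts are no result for the list. In every fit that left out 1 library 1 was higher and 1 lower. The most consistent over the fits were *Lmo2* (0.58) and *Sox4* (−0.97).

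**Figure D4:**
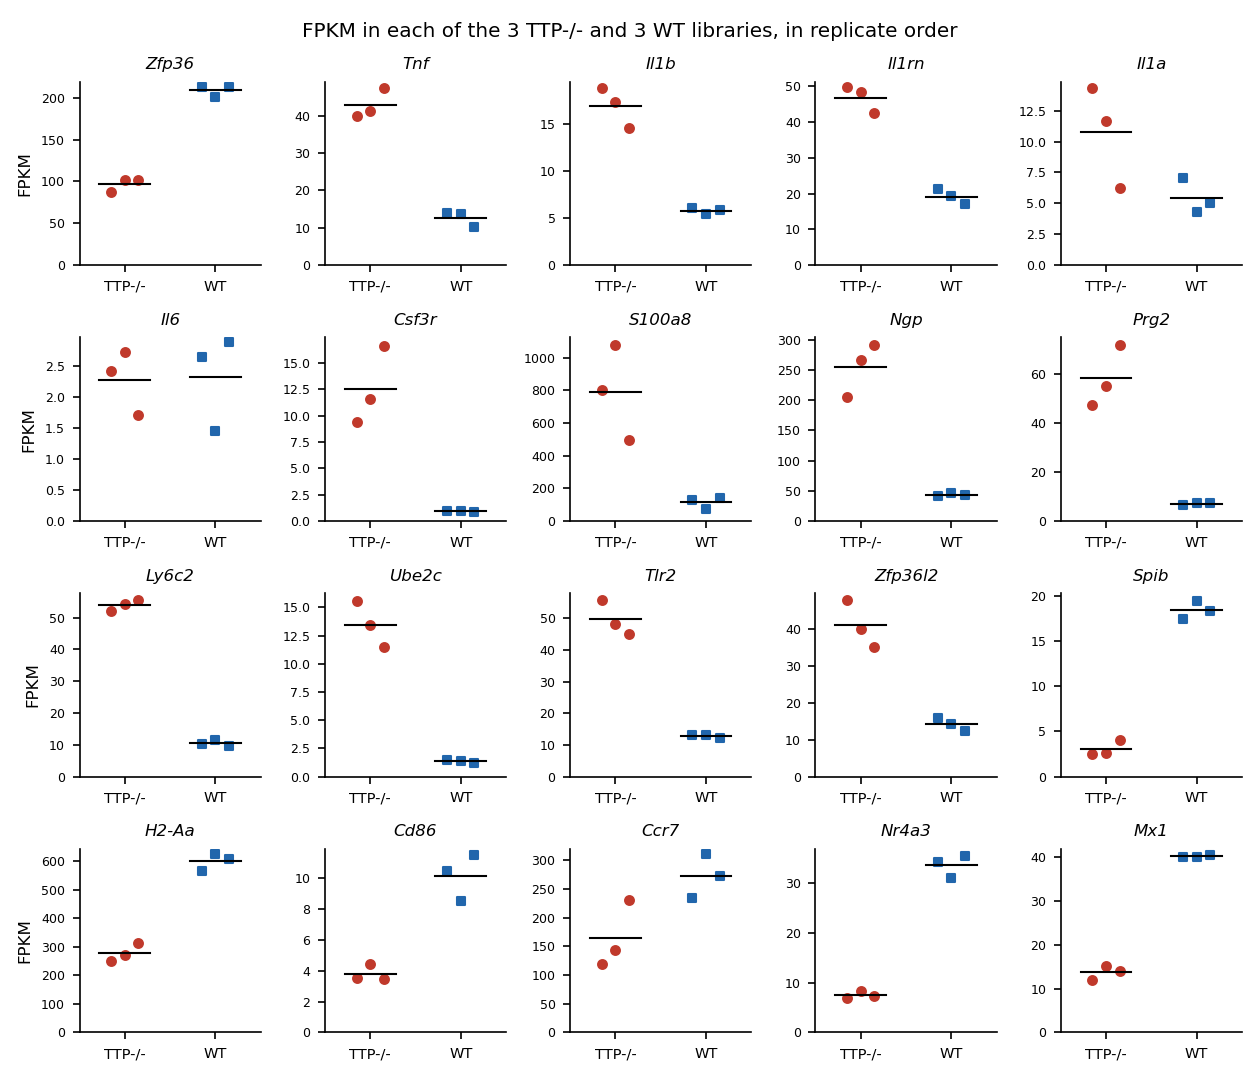
FPKM of 20 genes in each library (points, linear axes that start at 0), with TTP-/- to the left of WT and a line at the mean of each genotype. *Il1a*, *Il6* and *Ccr7* have overlapping or touching groups, and *Zfp36*, *Spib*, *Mx1* and *Nr4a3* lie lower and *Csf3r*, *Prg2*, *Ube2c* and *Tnf* higher in all TTP-/- libraries.

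Among mRNAs described as TTP targets, more were higher than lower in TTP-/- cells. Of 31 listed mRNAs described as bound or destabilized by TTP, 26 were tested, 14 rose and 7 fell, against 14.5% and 15.0% of all genes (median 0.84). In every fit that left out 1 library 11 rose and 2 fell, in TPM 15 rose and 4 fell, and without the outlying pair 15 rose and 9 fell. *Tnf* was at 39.9, 41.3 and 47.3 FPKM in TTP-/- libraries, against 14.02, 13.6 and 10.3 FPKM in WT libraries (log2 fold change 1.76, SE 0.15, limma adjusted p = 0.000474). *Cxcl2*, a neutrophil-attracting chemokine, was at 38.1, 27.5 and 31.4 FPKM in TTP-/- libraries, against 10.2, 10.2 and 8.01 FPKM in WT libraries (log2 fold change 1.76, SE 0.16, limma adjusted p = 0.000622). *Fos*, an AP-1 transcription factor, was at 1.14, 1.12 and 1.21 FPKM in TTP-/- libraries, against 0.277, 0.271 and 0.191 FPKM in WT libraries (log2 fold change 1.87, SE 0.14, limma adjusted p = 0.000287). In these 3 genes, whose sites are printed above, the lowest TTP-/- library was more than 2-fold above the highest WT library. *Fos* passed the filter through the TTP-/- libraries alone. *Plaur* (the urokinase receptor, 1.74), *Ccl3* (1.701), *Plk3* (1.42), *Myc* (1.31), *Slc2a1* (1.15) and *Ier3* (1.11) also rose. *Vegfa* (−0.67), *Pim1* (−0.56), *Mcl1* (−0.58), *Ppp1r15a* (−1.03), *Dusp1* (−0.82) and *Bcl6* (−0.54) fell, as did *Zfp36* itself. The lower counts of this list thus include the gene disrupted in these mice, whose fall is no result for the list. Several of the higher mRNAs, such as *Cxcl2*, *Il1b* and *Plaur*, are also expressed by neutrophils and monocytes, whose marker genes moved the same way, with mature neutrophil genes at 0.363 to 0.4603% of reads in TTP-/- and 0.1501 to 0.161% in WT libraries and monocyte and macrophage genes at 0.256 to 0.344% in TTP-/- and 0.108 to 0.1398% in WT libraries. The part of these markers in the cytokine, receptor and enzyme results was not tested.

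The IL-1 family was of interest in the study. Of 14 tested genes of 18 listed, 8 rose (57.1%) and 1 fell (7.14%), against 14.5% and 15.0% of all genes (median 0.89). Each of these calls held in every fit that left out 1 library. Without the outlying pair 10 rose and 2 fell, and 2 of the higher genes had a WT mean below the filter. The ligand gene *Il1b* was at 18.9, 17.4 and 14.6 FPKM in TTP-/- libraries, against 6.04, 5.45 and 5.88 FPKM in WT libraries (log2 fold change 1.53, SE 0.13, limma adjusted p = 0.000438). Its antagonist *Il1rn* was at 49.7, 48.3 and 42.5 FPKM in TTP-/- libraries, against 21.2, 19.3 and 16.99 FPKM in WT libraries (log2 fold change 1.29, SE 0.13, limma adjusted p = 0.000784). The decoy receptor *Il1r2* was at 2.38, 2.87 and 2.79 FPKM in TTP-/- libraries, against 0.547, 0.555 and 0.552 FPKM in WT libraries (log2 fold change 2.09, SE 0.11, limma adjusted p = 0.000152). Ligand, antagonist and decoy were thus higher together, with no overlap between groups. *Il1a* was at 14.4, 11.6 and 6.23 FPKM in TTP-/- libraries, against 7.06, 4.304 and 5.01 FPKM in WT libraries, and the groups overlapped because TTP-/- replicate 3 was below WT replicate 1 (log2 fold change 0.91, SE 0.33, limma adjusted p = 0.0799). It passed without the outlying pair (log2 fold change 1.11, adjusted p = 0.00958) and after GC correction (0.97, adjusted p = 0.0148). *Il1r1*, the signaling receptor, was below the filter, at 0.135, 0.103 and 0.0859 FPKM in TTP-/- and 0.0509, 0.0497 and 0.0492 FPKM in WT libraries. *Il1f9* (IL-36γ, 2.59), its receptor *Il1rl2* (1.55), *Nlrp3* (1.15), the sensor of the inflammasome, and its adaptor *Pycard* (0.57) rose. *Il18r1*, the receptor chain for IL-18, was at 0.256, 0.331 and 0.261 FPKM in TTP-/- libraries, against 1.02, 1.08 and 1.04 FPKM in WT libraries and was the one that fell (−1.59). It passed the filter through the WT libraries alone. *Casp1*, which cleaves pro-IL-1β, had 4.41 to 6.75 FPKM in TTP-/- and 3.44 to 4.94 FPKM in WT libraries (adjusted p = 0.229).

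Of 10 tested genes of other inflammatory cytokines 3 rose (30.0%) and 1 fell, against 14.5% and 15.0% of all genes (median 0.18; 5 and 1 without the outlying pair, 5 and 2 after GC correction), the rises besides *Tnf* being *Ltb* (1.57) and *Csf1* (1.09) and the fall *Il12b* (−0.68), which encodes the p40 chain of IL-12 and IL-23. *Il6* was at 2.41, 2.72 and 1.71 FPKM in TTP-/- libraries, against 2.64, 1.46 and 2.89 FPKM in WT libraries, with overlapping groups (log2 fold change 0.00, adjusted p = 0.995 by limma). Chemokines gave 9 higher (56.25%) and 2 lower (12.5%) of 16 tested, against 14.5% and 15.0% of all genes (median 0.77). In every fit that left out 1 library 4 were higher and 1 lower, and without the outlying pair 10 and 3. *Ccl3* was at 88.4, 92.3 and 81.2 FPKM in TTP-/- libraries, against 32.9, 29.3 and 19.9 FPKM in WT libraries (log2 fold change 1.701, SE 0.20, limma adjusted p = 0.00124). *Ccl6* (1.26), *Cxcl10* (1.18), *Cxcl3* (0.94) and *Ccl2* (0.91), which attract neutrophils, monocytes or T cells, were higher too. *Cxcl16* (−0.78) and *Ccl17* (−0.62), a ligand of CCR4, were lower. *Ccl22*, the other CCR4 ligand, was at 2003, 2612 and 3924 FPKM in TTP-/- libraries, against 3964, 4749 and 3944 FPKM in WT libraries (adjusted p = 0.109), and TTP-/- replicate 3 was close to the WT libraries. Without the outlying pair its log2 fold change was −0.79 (adjusted p = 0.0134).

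Immediate-early genes, which cells switch on within minutes of a signal and whose mRNAs decay fast, moved both ways (median 0.48). Of 21 tested, 10 were higher (47.6%) and 5 lower (23.8%), against 14.5% and 15.0% of all genes. Of the higher genes 2 had a WT mean below the filter, *Fos* among them. In every fit that left out 1 library 6 were higher and 2 lower, and without the outlying pair 11 and 5. *Klf2*, a transcription factor that restrains inflammatory genes in myeloid cells, was at 8.37, 8.06 and 7.08 FPKM in TTP-/- libraries, against 1.97, 2.08 and 2.06 FPKM in WT libraries (log2 fold change 1.89, SE 0.11, limma adjusted p = 0.000152). *Klf4* (1.52), *Myc* (1.31), *Ier3* (1.11) and *Ier2* (0.79) were higher in every fit, as was *Fos*. Opposite to them stood *Nr4a3* and *Zfp36*, which were lower in every fit. *Zfp36* is the gene disrupted in these mice, so its fall is no result for the list, although the lower counts include it. *Junb* (19.9 to 33.1 FPKM in TTP-/- and 22.8 to 32.99 FPKM in WT libraries, adjusted p = 0.819) and *Jun* (12.98 to 15.3 and 12.8 to 14.7 FPKM, adjusted p = 0.968) overlapped between groups.

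Interferon-stimulated genes split. Of 23 tested, 10 were higher (43.5%) and 6 lower (26.1%), against 14.5% and 15.0% of all genes (median 0.41). Of the higher genes 3 had a WT mean below the filter, *Oas2* among them. In every fit that left out 1 library 8 were higher and 5 lower, and without the outlying pair 12 and 8. *Oas2*, an RNA-sensing synthetase, was at 0.752, 0.968 and 1.24 FPKM in TTP-/- libraries, against 0.153, 0.139 and 0.0901 FPKM in WT libraries (log2 fold change 2.24, SE 0.21, limma adjusted p = 0.000596). *Irf7*, the amplifier of interferon production, was at 4.03, 4.41 and 5.52 FPKM in TTP-/- libraries, against 1.21, 1.73 and 1.26 FPKM in WT libraries (log2 fold change 1.67, SE 0.18, limma adjusted p = 0.000904). *Mx1*, a dynamin-like antiviral GTPase, was at 12.03, 15.2 and 14.1 FPKM in TTP-/- libraries, against 39.9, 39.9 and 40.4 FPKM in WT libraries (log2 fold change −1.54, SE 0.12, limma adjusted p = 0.000331). Values of *Mx1* differed little between WT libraries and lay more than 2-fold below them in all TTP-/- libraries, against the direction of *Oas2* and *Irf7*. *Rtp4* (1.804), *Oasl2* (1.65) and *Ddx58* (RIG-I, 1.14) rose, and *Usp18* (−0.90), *Stat2* (−0.86) and *Gbp2* (−0.66) fell. Genes of both kinds are known to be induced by interferon.

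Receptors for growth factors and cytokines gave 9 higher (40.9%) and 4 lower (18.2%) of 22 tested, against 14.5% and 15.0% of all genes. Of the lower genes 1 had a TTP-/- mean below the filter. Without the outlying pair 9 were higher and 6 lower. The list median (0.07) lay near that of all genes (−0.02), while the share called higher was above that of all genes. After *Csf3r* and *Csf1r*, the largest rise was *Il17ra* (1.51). For the GM-CSF receptor, through which these cultures are grown, the alpha chain *Csf2ra* was at 64.8, 60.96 and 70.2 FPKM in TTP-/- libraries, against 38.3, 45.6 and 29.02 FPKM in WT libraries (log2 fold change 0.82, SE 0.18, limma adjusted p = 0.0149). The common beta chain *Csf2rb* was at 86.4, 79.8 and 102 FPKM in TTP-/- libraries, against 88.3, 107 and 85.2 FPKM in WT libraries, with overlapping groups (log2 fold change −0.07, adjusted p = 0.777 by limma), and shares sequence with *Csf2rb2* (−0.20, adjusted p = 0.279). *Il7r* (−1.16) and *Il6st* (gp130, −0.86) were lower in every fit that left out 1 library.

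Toll-like receptors and their adaptors gave 11 higher (47.8%) and 2 lower (8.70%) of 23 tested, against 14.5% and 15.0% of all genes (median 0.43). Of the higher genes 4 had a WT mean below the filter. In every fit that left out 1 library 8 were higher and 2 lower, and without the outlying pair 13 and 4. *Tlr2*, the receptor for bacterial lipoproteins, was at 55.9, 48.2 and 45.2 FPKM in TTP-/- libraries, against 13.1, 13.1 and 12.2 FPKM in WT libraries (log2 fold change 1.95, SE 0.12, limma adjusted p = 0.000205). *Tlr4*, the receptor for LPS, was at 1.75, 1.37 and 0.875 FPKM in TTP-/- libraries, against 0.608, 0.451 and 0.529 FPKM in WT libraries (log2 fold change 1.14, SE 0.24, limma adjusted p = 0.0127). Its coreceptor *Cd14* was at 46.1, 36.4 and 34.8 FPKM in TTP-/- libraries, against 17.4, 18.5 and 13.4 FPKM in WT libraries (log2 fold change 1.25, SE 0.17, limma adjusted p = 0.00245). These receptors were higher in all TTP-/- libraries before any LPS was given, whereas *Ly96* (MD-2), the other part of the LPS receptor, was at 0.766, 0.839 and 0.342 FPKM in TTP-/- libraries, against 1.22, 0.672 and 1.18 FPKM in WT libraries (adjusted p = 0.218). *Tlr6* (1.64), *Tlr7* (1.44) and the inhibitory kinase *Irak3* (1.28) rose. *Tlr9* (−0.73), a sensor of CpG DNA, and *Traf6* (−0.89), the ubiquitin ligase downstream of the receptors, fell.

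Fc receptors and C-type lectins rose, 14 of 16 tested (87.5%), against 14.5% of all genes (median 1.41). Of the 14, 2 had a WT mean below the filter. In every fit that left out 1 library 11 were higher, and without the outlying pair 14. *Fcgr2b*, the inhibitory IgG receptor, was at 36.4, 27.5 and 21.04 FPKM in TTP-/- libraries, against 10.2, 8.53 and 7.44 FPKM in WT libraries (log2 fold change 1.66, SE 0.22, limma adjusted p = 0.00211). The activating receptor *Fcgr3* was at 23.9, 19.8 and 18.8 FPKM in TTP-/- libraries, against 8.26, 8.36 and 6.52 FPKM in WT libraries, a log2 fold change of 1.42. Activating and inhibitory receptors were thus higher together in all TTP-/- libraries. The lectins *Clec4a1* (2.22), *Clec4d* (2.19), *Clec4e* (Mincle, 2.09) and *Clec12a* (1.62) and the shared signaling chain *Fcer1g* (1.401) rose as well. *Cd302* (2.94 to 3.75 FPKM in TTP-/- and 3.05 to 3.26 FPKM in WT libraries, adjusted p = 0.773) and *Fcgrt* (0.453 to 0.776 and 0.572 to 0.877 FPKM, adjusted p = 0.546) were not past the threshold.

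Enzymes of lipid mediator and arginine metabolism were higher, 8 of 10 tested (80.0%), against 14.5% of all genes (median 1.21). Of the 8, 1 (*Arg2*) had a WT mean below the filter. In every fit that left out 1 library 7 were higher, and without the outlying pair 8 were higher and 1 lower. *Alox5ap*, which presents arachidonic acid to 5-lipoxygenase, was at 16.2, 15.8 and 14.1 FPKM in TTP-/- libraries, against 5.25, 4.799 and 4.27 FPKM in WT libraries (log2 fold change 1.67, SE 0.12, limma adjusted p = 0.0002798), and 5-lipoxygenase itself, *Alox5*, had a log2 fold change of 1.61. *Acod1*, which makes itaconate, was at 12.2, 8.82 and 7.97 FPKM in TTP-/- libraries, against 3.54, 3.55 and 2.64 FPKM in WT libraries (log2 fold change 1.54, SE 0.20, limma adjusted p = 0.00183). *Arg2* (1.44) and *Ptgs1* (COX-1, 0.98) rose too, while *Ltc4s* was at 11.6, 13.8 and 21.7 FPKM in TTP-/- libraries, against 18.7, 24.5 and 19.1 FPKM in WT libraries (adjusted p = 0.219). Antioxidant genes and oxidase subunits gave 13 higher (54.2%) and 1 lower (4.17%) of 24 tested, against 14.5% and 15.0% of all genes (median 0.67). Without the outlying pair 15 were higher and 1 lower. *Hmox1*, which degrades heme, was at 25.8, 20.4 and 18.98 FPKM in TTP-/- libraries, against 8.33, 7.76 and 6.003 FPKM in WT libraries (log2 fold change 1.55, SE 0.17, limma adjusted p = 0.00112). *Cybb*, the catalytic subunit of the phagocyte oxidase, was at 23.9, 19.6 and 14.2 FPKM in TTP-/- libraries, against 7.76, 6.25 and 6.34 FPKM in WT libraries (log2 fold change 1.46, SE 0.20, limma adjusted p = 0.002604), and *Nqo1* (1.31), *Mgst1* (1.496) and *Txnip* (1.15) rose. *Cat*, the catalase gene, was the member that fell (−0.56).

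In glycolysis and hypoxia response 10 of 19 tested genes rose (52.6%), against 14.5% of all genes (median 0.57). Of the 10, 2 had a WT mean below the filter, *Egln3* among them. In every fit that left out 1 library 5 were higher, and without the outlying pair 12 were higher and 1 lower. *Egln3*, an oxygen-sensing prolyl hydroxylase, was at 1.29, 1.42 and 1.34 FPKM in TTP-/- libraries, against 0.259, 0.218 and 0.234 FPKM in WT libraries (log2 fold change 2.11, SE 0.11, limma adjusted p = 0.000152). *Slc2a1* (the glucose transporter GLUT1) was at 4.86, 3.91 and 4.72 FPKM in TTP-/- libraries, against 2.09, 2.25 and 1.58 FPKM in WT libraries, a log2 fold change of 1.15, and *Hk3* (1.31) and *Aldoc* (1.07) rose. *Aldoa* (116 to 162 FPKM in TTP-/- and 78.3 to 110.1 FPKM in WT libraries, adjusted p = 0.0578) did not pass. Lysosomal genes gave 16 higher (55.2%) and 3 lower (10.3%) of 29 tested, against 14.5% and 15.0% of all genes (median 0.62). Of the higher genes 1 had a WT mean below the filter. In every fit that left out 1 library 10 were higher and 1 lower, and without the outlying pair 19 and 3. *Ctsd* (cathepsin D) was at 59.1, 42.2 and 50.5 FPKM in TTP-/- libraries, against 21.3, 23.1 and 16.8 FPKM in WT libraries (log2 fold change 1.304, SE 0.18, limma adjusted p = 0.00228). *Gla* (1.55), *Atp6v0d2* (1.48), *Man2b1* (1.13) and *Ctsa* (0.95) were higher, and *Lgmn*, a legumain protease of antigen processing, was lower at 1.66, 1.67 and 1.88 FPKM in TTP-/- libraries, against 2.996, 3.18 and 3.18 FPKM in WT libraries (−0.81). Sterol genes gave 6 higher (26.1%) and 1 lower (4.35%) of 23 tested, against 14.5% and 15.0% of all genes (median 0.24). Without the outlying pair 11 were higher and 2 lower. In every fit that left out 1 library 2 were higher, *Scd2* (1.41) and *Dhcr7* (0.85), the latter with a WT mean below the filter.

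Genes of the integrated stress response gave 3 higher and 3 lower of 16 tested (18.8% each way), near the 14.5% and 15.0% of all genes (median 0.08). Without the outlying pair 6 were higher and 3 lower, against 21.9% and 24.0% of all genes. After GC correction 7 were higher and 5 lower, against 24.4% and 22.5%. *Nupr1* (1.04), *Psat1* (0.90) and *Asns* (0.87) rose and *Mthfd2* fell (−0.66) in every fit that left out 1 library, and the factor *Atf4* had 66.05 to 84.5 FPKM in TTP-/- and 52.3 to 62.5 FPKM in WT libraries (adjusted p = 0.125). In the BCL2 family, which sets the threshold of apoptosis, 1 of 14 tested genes rose and 4 fell (28.6%), against 14.5% and 15.0% of all genes (median −0.44). The numbers were 1 and 8 without the outlying pair and 1 and 8 after GC correction, against the shares of all genes given above for these settings. The proapoptotic *Bid* was higher (0.83) and the proapoptotic *Pmaip1* (Noxa) lower (−0.76) in every fit that left out 1 library. *Mcl1*, which protects myeloid cells, was at 97.2, 104 and 90.6 FPKM in TTP-/- libraries, against 147, 129.6 and 159.6 FPKM in WT libraries (log2 fold change −0.58, SE 0.13, limma adjusted p = 0.01504) and held in 3 of the 6 fits.

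Cytosolic ribosomal protein genes, listed with 2 elongation factors, were lower in TTP-/- cells by small amounts. Of 60 tested genes 30 fell (median −0.55), against 15.0% of all genes. In every fit that left out 1 library 9 of the 30 fell, against 7.60% of all genes. In TPM 16 fell and 1 rose, against 905 lower and 1588 higher of 9174 genes. Without the outlying pair 50 fell and 1 rose, against 24.0% lower and 21.9% higher of all genes. *Rps9* was at 201, 203 and 200.5 FPKM in TTP-/- libraries, against 317, 314 and 340.3 FPKM in WT libraries (log2 fold change −0.68, SE 0.10, limma adjusted p = 0.00355). *Eef1a1*, which delivers tRNAs to the ribosome, was at 221, 229 and 252 FPKM in TTP-/- libraries, against 379, 379 and 454 FPKM in WT libraries (log2 fold change −0.79, SE 0.13, limma adjusted p = 0.00463). The TTP-/- libraries were below the WT libraries in both. Ribosomal protein genes have many processed pseudogenes with near-identical sequence, so the values of single members are uncertain. Summed, they took 1.77, 1.81 and 1.97% of reads in TTP-/- and 2.45, 2.58 and 2.63% in WT libraries. None of the 13 mitochondrial-encoded protein genes passed in limma (0 at an unadjusted p of 0.05, and 0 by voom on the recovered reads), and mitochondrial transcripts took 6.77 to 11.1% of reads in TTP-/- and 6.92 to 9.70% in WT libraries.

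By annotated type, some kinds of noncoding transcripts had more lower than higher calls, against 14.5% higher and 15.0% lower of all genes. Of 192 antisense genes 16 were higher (8.33%) and 48 lower (25.0%), and of 94 genes marked as yet to be experimentally proven 3 were higher (3.19%) and 25 lower (26.6%), against 1201 higher (15.8%) and 1109 lower (14.6%) of 7592 protein-coding genes. Long intergenic RNAs gave 11 higher (9.17%) and 19 lower (15.8%) of 120, and pseudogenes 57 higher (6.49%) and 139 lower (15.8%) of 878. The strand setting of the counting is not given in the sources used here, so reads of an antisense gene and of the gene opposite to it may not have been kept apart. Among the largest changes of long noncoding RNAs were *Gm37468* (2.48) and *F630028O10Rik* (2.43), which were higher, and *Dmrta2os* (−2.47) and *Gm4524* (−2.34), which were lower. *Dmrta2os* passed the filter through the WT libraries alone, with 5, 6 and 8 reads in TTP-/- and 49, 53 and 31 in WT libraries.

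The most even differences, those with the smallest standard errors among the 50 largest rises and the 50 largest falls, included the following. *Ly6a* (Sca-1) was at 11.6, 11.2 and 10.5 FPKM in TTP-/- libraries, against 1.69, 1.56 and 1.44 FPKM in WT libraries (log2 fold change 2.75, SE 0.11, limma adjusted p = 0.000142). *Ceacam10* had a log2 fold change of 2.797 and *Cxcr2* and *Il1f9* belonged to the same set. *Vopp1* was at 1.35, 1.40 and 1.41 FPKM in TTP-/- libraries, against 6.71, 6.704 and 7.63 FPKM in WT libraries (log2 fold change −2.26, SE 0.10, limma adjusted p = 0.000142), and *S1pr3* (−1.75), a sphingosine 1-phosphate receptor, *Rgs10*, *Gm5602* (−2.18) and *Sept4* (−1.98) were lower with similar evenness. At the other end, *Wfdc17*, a secreted antimicrobial protein of myeloid cells, was among the genes that varied most within a genotype, at 225, 164 and 72.6 FPKM in TTP-/- libraries, against 65.8, 40.2 and 47.9 FPKM in WT libraries (log2 fold change 1.47, adjusted p = 0.0373 by limma). Among the 10 genes with the highest mean FPKM, *Tmsb4x* (thymosin beta 4), at 3514, 3857 and 2935 FPKM in TTP-/- libraries, against 5390.3, 4414 and 5971 FPKM in WT libraries (log2 fold change −0.61, SE 0.17, limma adjusted p = 0.0338), was the one past the threshold.

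Genes beside *Zfp36* on chromosome 7 were described separately. Within 1 Mb on either side, 4 of 42 tested genes were higher (9.52%) and 7 lower (16.7%), within 5 Mb 17 higher and 18 lower of 122, and on the whole chromosome 113 higher (16.4%) and 94 lower (13.7%) of 688. The shares of all genes were 14.5% and 15.0%. The nearest called gene, *Plekhg2* (a guanine nucleotide exchange factor, chr7:28359604-28372599), was at 2.02, 2.503 and 3.22 FPKM in TTP-/- libraries, against 8.31, 10.6 and 8.06 FPKM in WT libraries (log2 fold change −1.77, SE 0.19, limma adjusted p = 0.000978). *Gmfg* was higher at 8.21, 8.71 and 6.44 FPKM in TTP-/- libraries, against 3.35, 2.57 and 2.54 FPKM in WT libraries (log2 fold change 1.43, SE 0.16, limma adjusted p = 0.00121). *Spred3*, an inhibitor of Ras signaling, was at 0.242, 0.2898 and 0.2902 FPKM in TTP-/- libraries, against 1.98, 2.04 and 1.65 FPKM in WT libraries (log2 fold change −2.41, SE 0.13, limma adjusted p = 0.000152). The groups did not overlap in these 3 genes, and *Spred3* passed the filter through the WT libraries alone. Without the outlying pair 4 genes within 1 Mb were higher (9.52%) and 15 lower (35.7%), against 21.9% and 24.0% of all genes, and after GC correction 4 were higher and 13 lower (31.0%), against 24.4% and 22.5%.

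**Figure D5:**
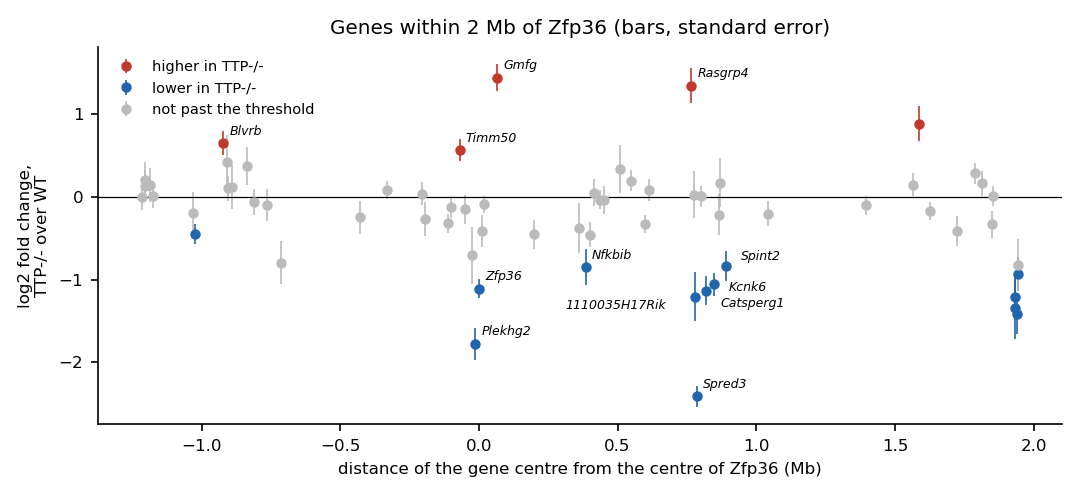
Log2 fold change of TTP-/- over WT of the tested genes within 2 Mb of *Zfp36* against their distance from it (Mb), with standard errors as bars and called genes coloured. Lower and higher genes lie on both sides of *Zfp36* (−1.11), the lowest being *Spred3* (−2.41).

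To relate the changes to the sequence TTP binds, UUAUUUAUU and the shorter UAUUUAU, which it contains, were counted on the sense strand of annotated 3′ UTRs. Of 490 genes with UUAUUUAUU 16.9% were higher and 17.1% lower, against 15.8% and 14.5% of the 7039 genes without it. Genes with at least 2 copies (99) were higher in 18.2% and lower in 20.2%. For UAUUUAU, genes with at least 2 copies (632) were higher in 12.0% and lower in 17.9%, and genes with none (5579) in 16.2% and 13.4%. UTRs with UUAUUUAUU were longer, with a median of 2088 bases against 866 without it. Genes were also divided into 4 equal groups by UTR length. From the shortest to the longest group, 14.3%, 30.4%, 21.4% and 10.8% of the 21, 79, 131 and 259 genes with UUAUUUAUU were higher, against 16.5%, 18.9%, 14.8% and 12.5% of the genes without it. These shares are descriptions, and a motif in the annotated letters does not show that TTP binds there.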

How the data were processed

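Poly(A) RNA of untreated BMDCs was sequenced by the authors as single-end reads from SENSE libraries, trimmed with cutadapt, aligned with STAR 2.5 to GRCm38/mm10 and tested with DESeq2. The FPKM deposited by the authors are scaled within the 6 libraries of 0 h, and in 77.6% of rows they divide reads by the whole gene span, introns included. The annotation and the settings of the counting are not given in the sources used here. Columns with the authors' mean, fold changes and p-values, and the tables of the other times, were not used. Reads were recovered for 99.995% of rows (within 0.05 of a whole number). The exception, ENSMUSG00000045999, had no name and stayed out of the read totals. Of 21590 IDs, 15947 took their name from the table and 5413 from GENCODE M21.

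Genes averaging 0.5 FPKM or more were tested on log2(FPKM + 0.1) with limma 3.58.1 in R 4.3.3 (2-group model, mean-variance trend, Benjamini-Hochberg), with an adjusted p of 0.05 as the threshold. Python 3.11.15 with pandas 2.3.3, numpy 2.4.6 and scipy 1.17.1 did the rest. In data simulated without a GC tilt, 97.4 to 97.5% of genes changed 2-fold, all changed 4-fold and 0.122% of 9000 unchanged genes were called. That simulation used the same spread for all genes and changed far fewer genes than were called here. Its rates therefore check the code and do not give the rates for these libraries, 2 of which had a GC tilt. The comparison and the 33 gene lists (713 entries, of which 548 were tested) were chosen with earlier results of these data known. Named genes were, by a rule, the 12 largest rises and falls with a mean of at least 5 FPKM, up to 5 members per list called in every fit and 3 not called with the highest means, 14 genes of the TTP and IL-1 questions, the 10 highest genes, the 10 called genes nearest *Zfp36*, those with the widest spread within a genotype, those with the smallest errors and 10 long noncoding RNAs. Other genes were named after their values were seen. Some genes that the rule names are not reported here. Alternatives were another pseudocount or filter, TPM, a common median, quantile normalization, other variance settings, the replicate number as a block, stricter thresholds, voom on recovered reads (mean of at least 10), FPKM on exon lengths and leaving out each library. Further alternatives, chosen once the data had been seen, were the fit without the outlying pair and a GC correction (lowess per library, span 0.3, 9087 genes).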

Additional observations from a re-analysis of the deposited data

How the results depend on the processing

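No call of a named gene reversed under any of 22 settings. Among the named genes, most calls were lost with a log2 fold change of at least 1 (26), followed by an adjusted p of 0.01 (9) and the replicate block (8), and most were gained without TTP-/- replicate 3 and WT replicate 2 (36) and with GC correction (28). The counts of higher and lower genes (1327 and 1377) became 402 and 508 with a filter at 5 FPKM, 756 and 654 at an adjusted p of 0.01, and 574 and 340 with a log2 fold change of at least 1. They became 2604 and 2328 with voom on recovered reads, which tests more genes, and 2012 and 2201 without TTP-/- replicate 3 and WT replicate 2. The higher count became 2245 without a filter, 2185 on exon lengths and 2214 with GC correction, and the lower count 905 in TPM. Of the list members, 343 were called in all, but 183 with the filter at 5 FPKM and 177 with a log2 fold change of at least 1. Around *Zfp36*, 11 genes within 1 Mb were called, 6 with the filter at 5 FPKM, 6 at an adjusted p of 0.01, 7 with a log2 fold change of at least 1, 17 with GC correction and 19 without the 2 libraries. The share of higher genes among those with UUAUUUAUU (16.9%) was 21.3%, 9.39%, 7.76%, 27.3% and 22.2% in the same order of settings. Over all tested genes the share of higher genes was 24.4% with GC correction and 21.9% without the 2 libraries. It was 402 of 2364 genes with the filter at 5 FPKM. At an adjusted p of 0.01 it was 756 of 9174, and with a log2 fold change of at least 1 it was 574 of 9174.

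Same-numbered libraries deviated from their group means with correlations of 0.414, −0.567 and −0.426. The highest of all, 0.685, was between TTP-/- replicate 3 and WT replicate 2, the libraries with the GC tilt, which also enters the other correlations. These values cannot show whether same-numbered libraries shared a culture or a day, which the sources used here do not give. The main fit did not pair libraries. A replicate block gave 840 higher and 733 lower genes of 9174. With it 7 were called around *Zfp36*, and 11.02% of the motif genes were higher. Leaving out 1 library at a time gave 846 to 1591 higher and 778 to 1720 lower genes, 251 to 375 called list members, 7 to 17 called genes around *Zfp36*, 10.4 to 18.98% of motif genes higher and a log2 fold change of *Zfp36* of −1.15 to −1.04. The most genes were called without TTP-/- replicate 3, with 1591 higher and 1720 lower, and the fewest without WT replicate 3, with 846 and 778. Without TTP-/- replicate 1 there were 900 and 836, and without WT replicate 1 there were 892 and 783. The cause of these shifts was not tested beyond the GC correction. Genes with under 0.5 FPKM on average, 12416 of 21590, were not tested, and absence of a call there says nothing about their levels.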
